A study of Mus musculus with 10 samples.

Results

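The genes described here are 10 components of the Notch pathway in the mouse uterus, namely the 4 receptors *Notch1*, *Notch2*, *Notch3* and *Notch4*, the 4 ligands *Dll1*, *Dll4*, *Jag1* and *Jag2*, and the 2 target genes *Hes1* and *Hey1*. They were taken by name as components of the pathway, and all 10 were found among the 29268 genes listed and among the 16993 genes tested. Snap-frozen uterine tissue of 5 HSD17B1TG females and 5 wild-type (WT) females, all aged 4 months, was sequenced as mRNA with 1 library per mouse. Which part of the uterus gave the RNA is not stated in the study's methods. HSD17B1TG mice (TG) are on the FVB/N background and carry the cDNA of human HSD17B1, the enzyme that converts estrone to the more active estradiol, behind a CMV-enhanced chicken beta actin promoter that is active throughout the body. Transgenic animals are heterozygous, with the transgene passed on by the father and a WT mother. The study's methods state, for the histology, that TG females have no estrous cycle and that WT uteri were taken at any phase of it, so genotype and cycle state cannot be told apart. The transgene acts in all tissues, so the uterus and other organs cannot be told apart as the place where it acts. The mice are called TG1 to TG5 and WT1 to WT5 below, and these numbers are names only.

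Notch signaling passes between cells that touch. A ligand of the Delta-like (Dll) or Jagged (Jag) family on one cell binds a Notch receptor on its neighbour, the receptor is cut by an ADAM protease and then by gamma-secretase, and the freed intracellular domain joins the DNA-binding protein RBPJ to switch on genes such as those of the Hes and Hey families of transcriptional repressors. Glycosylation of the receptor by Fringe enzymes shifts its preference between the ligand families, and the pathway is best known in vessels for sorting sprouting tip cells from stalk cells and for arterial identity. In the uterus it has been studied in the epithelium, in the stroma that surrounds an implanting embryo and in the growing vessels.

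One member was called higher in TG, *Dll4*. A gene was called when its adjusted p was under 0.05, it changed more than 2-fold and its mean level was over 1 FPKM (fragments per kilobase of gene, scaled to sequencing depth) in either group, and 2.16% of all genes tested met it on the higher side and 2.08% on the lower side. No member was called lower, and the largest difference in that direction was that of *Jag2*, which lay just outside the threshold. Without the fold and level thresholds, *Dll4* was again the 1 member with an adjusted p under 0.05 in the edgeR quasi-likelihood test, against 6.16% of all genes tested. An unadjusted p under 0.05 was found for 5 of the 10 members, 3 of them higher in TG (*Dll4*, *Jag1* and *Hes1*) and 2 lower (*Jag2* and *Notch4*), beside 26.1% of all genes tested. The median log2 fold change of the 10 members was -0.13 and that of all genes tested was 0.00, with 4 members higher and 6 lower in TG.

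Total counts per mouse lay between 16544864 and 19451715 in TG and between 14817228 and 23271988 in WT. A count of 3 in the smallest library corresponds to 0.202 CPM (counts scaled to library size) (counting error alone). The share of mitochondrial genes was 5.74, 6.87 and 7.57% in TG1, TG4 and TG5 and 1.94 to 3.37% in the other 7 mice. The 10 most abundant genes of each library took 6.97 to 12.5% of its counts in TG and 5.18 to 6.15% in WT, without overlap, and the part of this in the differences of the members was not tested. Mouse *Hsd17b1* was listed at 0.754 to 1.32 FPKM in TG and 0.456 to 1.42 in WT, but the transgene is human and a mouse annotation does not count it, so this is no check of the genotype labels. Uterine stroma, smooth muscle and epithelial markers were expressed in every group, and the oviduct markers did not go one way. *Ovgp1*, the major secreted glycoprotein of that organ, was at 0.935 ± 0.730 FPKM (SD, n = 5) in TG and 1.55 ± 1.68 in WT, and the transcription factor *Pax8* was at 9.87 ± 4.63 in TG and 6.38 ± 1.85 in WT. The ciliary genes *Dnah5* (0.246 in TG and 0.0648 in WT) and *Foxj1* (0.0269 and 0.494) had group means below 1 FPKM. None of the 3 oviduct markers tested had an adjusted p under 0.05 in edgeR. The labels do not explain the numbers they end in or name a litter or date. The tests treat all mice as independent, which cannot be checked here.

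Among the receptors, *Notch2* had the highest mean in both groups and the smallest ratio of the highest to the lowest of the 10 mice, though *Notch1* was above it in TG3 and *Notch3* in WT3. It lay at 9.28, 6.48, 5.79, 8.91 and 6.63 FPKM in TG1 to TG5 and at 8.03, 8.30, 6.34, 7.10 and 7.39 FPKM in WT1 to WT5. The highest and the lowest of the 10 mice were both TG, and the 2 means were 7.42 ± 1.57 and 7.43 ± 0.779 FPKM (SD, n = 5 each). The log2 fold change of TG over WT was -0.01 with a standard error (SE) of 0.16 (edgeR, adjusted p = 0.983), and its sign turned when any of 4 single mice was left out.

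*Notch1*, a receptor of epithelia, endothelium and lymphocytes, was spread most widely within TG. Its level was 2.56, 5.02, 7.14, 2.21 and 1.46 FPKM in TG1 to TG5, so TG2 and TG3 lay above every WT mouse and TG5 below every WT mouse. In WT it was 4.91, 2.98, 2.89, 3.31 and 2.03 FPKM. Its log2 fold change was 0.18 (SE 0.40, edgeR adjusted p = 0.813), and it was -0.22 without TG3.

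*Notch3* is the receptor of vascular mural cells, the pericytes and smooth muscle cells around vessels. It lay at 3.07, 3.58, 2.75, 3.50 and 2.24 FPKM in TG and at 4.05, 3.66, 7.96, 1.76 and 3.98 FPKM in WT. WT mice WT3 and WT4 were the highest and the lowest of all 10, and the other 3 WT mice were above each TG mouse. TG over WT gave a log2 fold change of -0.51 (SE 0.33, edgeR adjusted p = 0.360). It was -0.18 without WT3 (edgeR adjusted p = 0.744) and -0.70 without WT4 (edgeR adjusted p = 0.0974), the ends of the range with 1 mouse left out.

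*Notch4*, the receptor most restricted to endothelium, was the receptor with the largest difference. The levels in TG1 to TG5 were 1.94, 1.22, 1.05, 1.19 and 0.550 FPKM. Those in WT1 to WT5 were 2.74, 1.80, 2.96, 1.48 and 1.93 FPKM. Every TG mouse but TG1 was below every WT mouse, and TG1 reached the middle of the WT range. The difference was not called, with a log2 fold change of -0.88 (SE 0.32, unadjusted p = 0.0198, edgeR adjusted p = 0.115). Of the 10 fits that left out 1 mouse, the fit without TG1 alone gave an edgeR adjusted p under 0.05 (-1.12, adjusted p = 0.0420), and the other 9 gave 0.0736 to 0.230. On log2(FPKM + 1), the exact permutation test (two-sided) gave p = 0.0317, where the smallest p that 5 against 5 mice allow is 0.00794 and 24.1% of all genes tested had a p under 0.05.

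Per length, *Notch2* made up 49.3% ± 11.5 of the summed FPKM of the 4 receptors in TG and 44.4% ± 8.36 in WT. *Notch4* was the smallest part, at 7.58% ± 2.43 in TG and 12.6% ± 1.76 in WT. The summed level was 15.3 ± 2.51 FPKM in TG and 17.1 ± 2.80 in WT, so the receptors together differed by less than the spread between mice.

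**Figure D1:**
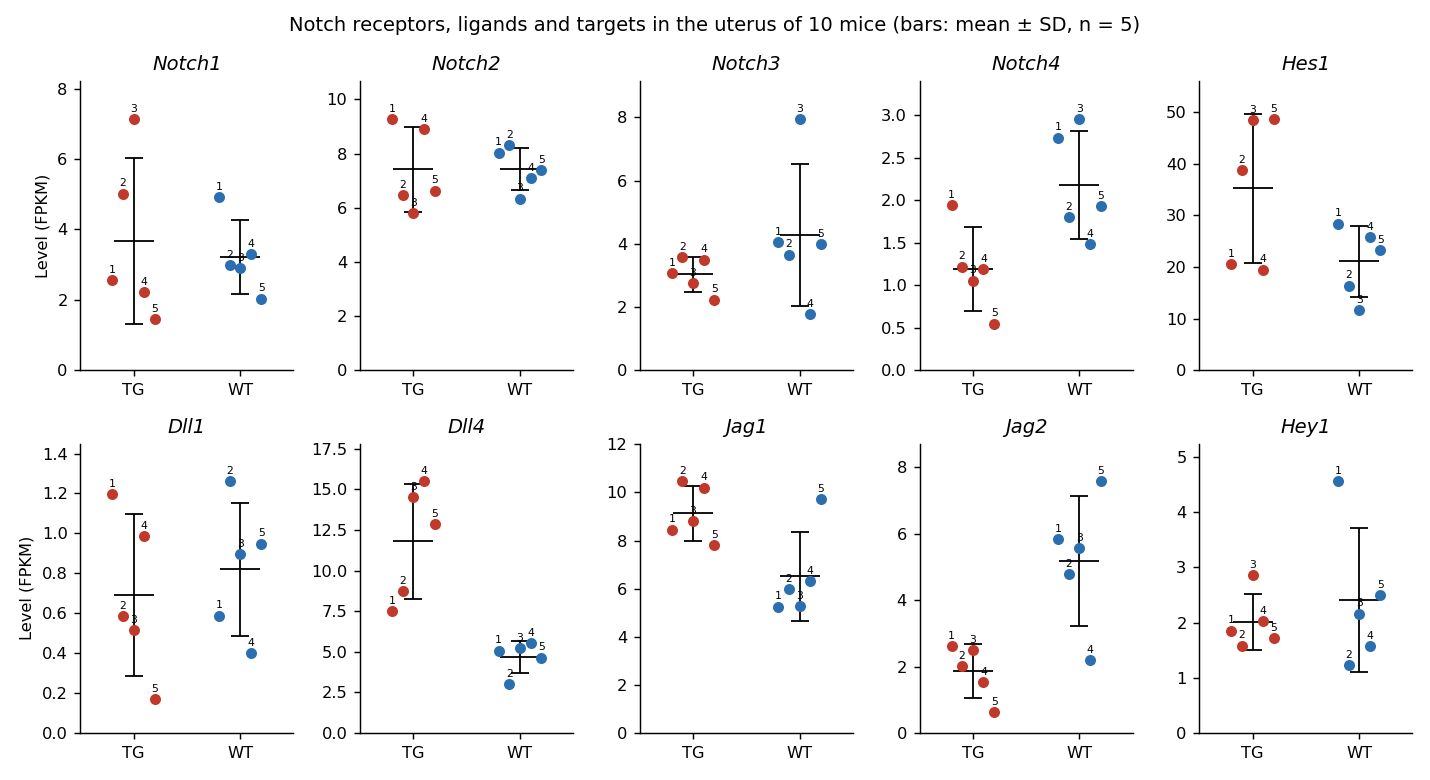
Level in FPKM (vertical axes, from 0) of the 10 members in each of 5 TG (red) and 5 WT (blue) uteri, with the number of the mouse at each point and bars for the mean ± SD. *Dll4* is the 1 member whose groups do not overlap, and for *Jag2* the WT mouse WT4 lies within the TG range.

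Of the 4 ligands, *Dll4* alone passed the test. *Dll4*, the Delta-like ligand of arterial endothelium and sprouting tip cells, was more abundant in each TG mouse than in any WT mouse. The gene lies at chr2:119325784-119335962 on the plus strand of GRCm38. Its level was 7.49, 8.71, 14.5, 15.5 and 12.9 FPKM in TG1 to TG5. It was 5.07, 3.01, 5.22, 5.52 and 4.64 FPKM in WT1 to WT5. TG1 and TG2 were the lowest of the TG mice and stood nearest to WT, while WT2 was the lowest of all. The means were 11.8 ± 3.54 FPKM in TG and 4.69 ± 0.993 in WT (SD, n = 5 each), from 220 to 1052 counts per mouse.

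*Dll4* rose by a log2 fold change of 1.33 (SE 0.24), a 2.51-fold difference, in the edgeR quasi-likelihood test (adjusted p = 0.0219 over all genes tested). On log2(FPKM + 1), its exact permutation p (two-sided) was 0.00794, the smallest possible here. Groups did not overlap, with TG above, for 4.04% of all genes tested. The call was close to the threshold when single mice were left out. The edgeR adjusted p was 0.0531 without TG4, 0.0534 without TG5, 0.0546 without WT2, 0.0515 without WT3 and 0.0588 without WT5, while the log2 fold change stayed between 1.18 and 1.46 over the 10 such fits. In DESeq2 the adjusted p was 6.0e-05.

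One transcript overlaps *Dll4* on the other strand. *Gm14207*, a processed transcript of the minus strand at chr2:119321187-119326194 in GENCODE M21, shares 411 bases with the 5′ end of the *Dll4* gene, and the strand setting of the authors' counting is not given in the sources used here. It had 45 to 113 counts in TG and 9 to 50 in WT, with a log2 fold change of 1.88 (edgeR adjusted p = 0.0405). Reads on the shared bases cannot be told apart between the genes, and the count of *Gm14207* in any mouse was below the lowest *Dll4* count.

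*Jag2*, a Jagged ligand of epithelia, vessels and mesenchyme, had the largest difference of the 10 members, in the other direction. The gene lies at chr12:112907819-112929776 on the minus strand. The levels in TG1 to TG5 were 2.62, 2.02, 2.50, 1.53 and 0.637 FPKM. Those in WT1 to WT5 were 5.83, 4.79, 5.56, 2.20 and 7.58 FPKM. Only WT4 overlapped the TG mice, where it lay below TG1 and TG3, and the other 4 WT mice were above every TG mouse. TG5 was the lowest of all 10.

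The log2 fold change of *Jag2* was -1.49 (SE 0.40), a 2.81-fold lower level in TG, with an unadjusted p of 0.00329 and an edgeR adjusted p of 0.0511, so it was not called. The two-sided exact permutation test gave p = 0.0238. Other settings fell on both sides of the threshold. The adjusted p was 0.00584 in DESeq2, where 12.9% of all genes tested were under 0.05, and 0.0700 in limma on voom weights. It was 0.0383 without TG1, 0.0495 without TG3 and 0.0156 without WT4 in edgeR, and 0.111 without WT5.

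*Jag1*, the Jagged ligand whose loss causes the vascular and biliary defects of Alagille syndrome, lay at 8.45, 10.5, 8.81, 10.2 and 7.80 FPKM in TG. In WT it lay at 5.26, 5.99, 5.26, 6.32 and 9.73 FPKM. WT5 lay within the TG range and the other 4 WT mice were below every TG mouse. On the log2 scale the fold change was 0.48 (SE 0.18, unadjusted p = 0.0241, edgeR adjusted p = 0.129), which was not called.

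*Dll1*, the Delta-like ligand known from the patterning of somites and from lymphocyte development, was the least abundant member, with 11 to 101 counts per mouse. It lay at 1.20, 0.586, 0.516, 0.985 and 0.168 FPKM in TG and at 0.588, 1.26, 0.897, 0.402 and 0.949 FPKM in WT. The groups overlapped over most of their range. The log2 fold change was -0.25 (SE 0.49, edgeR adjusted p = 0.786).

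The make-up of the ligands differed more than their sum. The summed level of the 4 ligands was 23.5 ± 3.58 FPKM in TG and 17.2 ± 3.35 in WT. *Dll4* took 49.6% ± 9.93 of it in TG and 27.9% ± 7.76 in WT. *Jag2* took 8.08% ± 3.98 in TG and 29.6% ± 8.08 in WT. *Jag1* took a like share in both, 39.3% ± 5.94 and 37.7% ± 6.09. These shares are descriptions and depend on each other, since they add up to the whole in each mouse.

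The ratio of *Dll4* to *Jag2* in the same mouse joins the 2 differences. It was 2.86, 4.31, 5.82, 10.1 and 20.2 in TG1 to TG5. It was 0.869, 0.627, 0.937, 2.50 and 0.612 in WT1 to WT5. Every TG mouse had more *Dll4* than *Jag2* per length, as did WT4 alone among WT, and the groups did not overlap although WT4 came near TG1. The ratio of *Dll4* to *Notch4* did not overlap either, with 3.86 to 23.4 in TG and 1.67 to 3.72 in WT. The groups overlapped in the ratio of *Dll4* to *Jag1* (0.833 to 1.65 in TG and 0.477 to 0.992 in WT) and in that of *Hes1* to *Hey1* (9.59 to 28.4 and 5.34 to 16.4). No test was made on these ratios, since the members were picked with the values known. *Dll4* alone did not overlap between the groups, so its ratios to members that were lower in TG are not separate results. The share of other gene pairs without overlap was not computed.

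**Figure D2:**
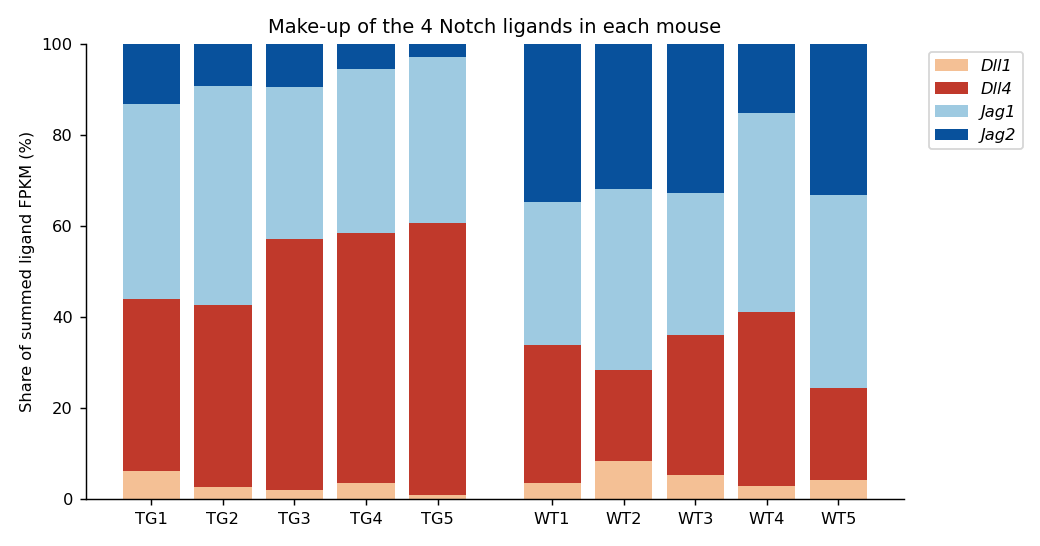
Share of each ligand in the summed FPKM of the 4 ligands (vertical axis, percent), with 1 bar for each mouse. The *Jag2* share is at most 13.3% in TG and at least 15.3% in WT, while the *Dll4* share of TG1 (37.9%) lies just below that of WT4 (38.2%).

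The start regions of *Dll4*, *Jag2* and *Notch4* are shown because these 3 members had the smallest p. Each line runs from 250 bases before to 50 bases after the transcript start in RefSeq, 5′ to 3′ on the strand of the gene, with GGTCA or its complement TGACC (the half-site of the estrogen response element) and CACGCG or its complement CGCGTG (a site bound by Hes and Hey proteins) in capitals. The regions of GRCm38.p6 are chr2:119325534-119325833 (plus) for *Dll4*, chr12:112929446-112929745 (minus) for *Jag2* and chr17:34564045-34564344 (plus) for *Notch4*.
Dll4: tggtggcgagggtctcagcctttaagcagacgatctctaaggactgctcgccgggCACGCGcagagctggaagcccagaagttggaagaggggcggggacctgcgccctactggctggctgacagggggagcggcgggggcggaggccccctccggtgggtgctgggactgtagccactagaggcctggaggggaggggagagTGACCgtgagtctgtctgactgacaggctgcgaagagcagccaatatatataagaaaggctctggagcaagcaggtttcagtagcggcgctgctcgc
Jag2: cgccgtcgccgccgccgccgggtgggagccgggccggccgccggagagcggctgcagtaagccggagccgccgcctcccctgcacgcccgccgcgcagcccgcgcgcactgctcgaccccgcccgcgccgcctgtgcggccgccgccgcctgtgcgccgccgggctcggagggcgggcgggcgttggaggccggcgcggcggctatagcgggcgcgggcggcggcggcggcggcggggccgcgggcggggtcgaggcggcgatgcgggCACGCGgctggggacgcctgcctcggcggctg
Notch4: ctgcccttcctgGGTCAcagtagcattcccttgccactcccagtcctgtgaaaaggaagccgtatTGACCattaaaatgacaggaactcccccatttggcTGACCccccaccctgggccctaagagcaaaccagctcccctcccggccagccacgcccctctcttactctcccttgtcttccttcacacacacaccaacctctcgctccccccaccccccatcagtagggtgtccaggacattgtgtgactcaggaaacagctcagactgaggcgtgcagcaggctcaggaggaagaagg
The *Dll4* region holds 1 half-site and 1 CACGCG, the *Jag2* region 1 CACGCG, and the *Notch4* region 3 half-sites. Of 32851 RefSeq promoters of the same length, 40.5% hold the half-site and 9.27% hold CACGCG on either strand. RefSeq promoters were matched for 8 of the 10 members, in 9 regions, and GGTCA was found in those of *Dll1*, *Dll4* and *Notch4*. CACGCG was found in 5 of the 9 regions, those of *Dll1*, *Dll4*, *Jag1*, *Jag2* and *Notch2*. TGGGAA, the core of the site bound by RBPJ, was found in none of the 9 and in 25.6% of all promoters on either strand. The *Jag2* region is 86.0% G and C, above 99.9% of all promoters (median 52.7%), beside 63.7% for *Dll4* and 58.3% for *Notch4*. The whole *Jag2* region lies within the gene coordinates given above, so the RefSeq start used lies downstream of the 5′ end of that gene. The matches in the 3 lines do not overlap, and a match is a description of the letters only.

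Both target genes were expressed in all mice, and neither passed the test. *Hes1*, the repressor that Notch induces in many tissues, was the most abundant member in each mouse. It lay at 20.6, 38.8, 48.4, 19.5 and 48.7 FPKM in TG1 to TG5. It lay at 28.4, 16.4, 11.6, 25.8 and 23.2 FPKM in WT1 to WT5. TG2, TG3 and TG5 lay above every WT mouse, and TG1 and TG4 lay in the WT range. Between the groups, the log2 fold change was 0.74 (SE 0.32, unadjusted p = 0.0439, edgeR adjusted p = 0.179), and the two-sided exact permutation test gave p = 0.103.

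*Hey1*, a repressor known from arterial endothelium and the heart, lay at 1.86, 1.58, 2.86, 2.03 and 1.71 FPKM in TG. In WT it lay at 4.56, 1.23, 2.16, 1.57 and 2.50 FPKM. WT1 and WT2 were the highest and the lowest of all 10 mice. The log2 fold change was -0.26 (SE 0.35, edgeR adjusted p = 0.677), and 0.08 without WT1.

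The order of the members by level per length was read from the group means in FPKM. In WT it was *Hes1*, *Notch2*, *Jag1*, *Jag2*, *Dll4*, *Notch3*, *Notch1*, *Hey1*, *Notch4* and *Dll1*. In TG it was *Hes1*, *Dll4*, *Jag1*, *Notch2*, *Notch1*, *Notch3*, *Hey1*, *Jag2*, *Notch4* and *Dll1*. *Dll4* thus went from rank 5 to rank 2 and *Jag2* from rank 4 to rank 8. Neighbours in the order overlapped in range, except *Hes1* and the next gene in both groups and *Notch4* and *Dll1* in WT. In TG, *Dll4* was above *Jag1* in 3 of 5 mice, so their order is not clear beyond the spread.

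Single mice stood out across members. TG5 was the lowest of all 10 mice in 4 members (*Notch1*, *Notch4*, *Dll1* and *Jag2*) and the lowest TG mouse in 6. WT4 was the lowest WT mouse in 4 members, *Notch3*, *Notch4*, *Dll1* and *Jag2*. TG5 was the lowest TG mouse in the same 4 genes, so *Notch3*, *Notch4*, *Dll1* and *Jag2* share their lowest mouse in each group.

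Of the 54 other pathway genes on a list written by role, 53 were listed, 48 passed the filter on low counts, and 0 had an adjusted p under 0.05 in edgeR, so 0 were called. At an unadjusted p under 0.05 there were 17 of the 48, 8 higher and 9 lower in TG, beside 26.1% of all genes tested. In DESeq2 7 had an adjusted p under 0.05, beside 12.9% of all genes. Their median log2 fold change was 0.00, the same as that of all genes tested. The values below are log2 fold changes of TG over WT for the 2 genes of each role with the smallest p, none of which passed the test.

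The enzymes that add sugars to the receptors were lower in 5 of 5 genes. The Fringe enzyme *Mfng* was at 1.86 ± 0.643 FPKM in TG and 3.93 ± 1.87 in WT, with a log2 fold change of -1.08 (SE 0.37, edgeR adjusted p = 0.0986). *Pofut1*, which adds the fucose that Fringe enzymes extend, had a log2 fold change of -0.51 (edgeR adjusted p = 0.0814).

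The proteases that cut the receptor were higher in 9 of 10 genes. *Ncstn* and *Psenen*, both subunits of gamma-secretase, had log2 fold changes of 0.68 and 0.59 (edgeR adjusted p = 0.0977 and 0.0980). *Psen2*, a catalytic subunit of the same enzyme, was the 1 gene lower in TG, at -0.30.

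The 13 genes of endocytosis and ubiquitination, which control the uptake of ligands and receptors, were divided, with 8 higher and 5 lower. *Numb*, an inhibitor of Notch receptors, was at 28.9 ± 9.18 FPKM in TG and 15.3 ± 4.43 in WT, with a log2 fold change of 0.91 (SE 0.24, edgeR adjusted p = 0.0509). *Dtx2*, a Deltex ubiquitin ligase, had a log2 fold change of 0.42 (edgeR adjusted p = 0.0555).

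The 16 nuclear genes tested were lower in 8 and higher in 8. *Rbpj*, the DNA-binding partner of all 4 receptors, was at 3.08 ± 0.519 FPKM in TG and 4.87 ± 1.31 in WT, with a log2 fold change of -0.66 (SE 0.20, edgeR adjusted p = 0.0655). *Hdac2*, a histone deacetylase of co-repressor complexes, had a log2 fold change of -0.56 (edgeR adjusted p = 0.0520).

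The 3 other target genes tested were each lower in TG. *Heyl*, a Hey family member of vascular smooth muscle, was at 1.01 ± 0.478 FPKM in TG and 2.88 ± 1.30 in WT, with a log2 fold change of -1.52 (SE 0.43, edgeR adjusted p = 0.0594). *Nrarp*, a feedback inhibitor of the receptor's intracellular domain, had a log2 fold change of -0.85 (edgeR adjusted p = 0.289). Of the 4 other ligands, *Dner* was the 1 tested, at 0.429 FPKM in TG and 0.234 in WT (log2 fold change 0.87, edgeR adjusted p = 0.560).

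**Figure D3:**
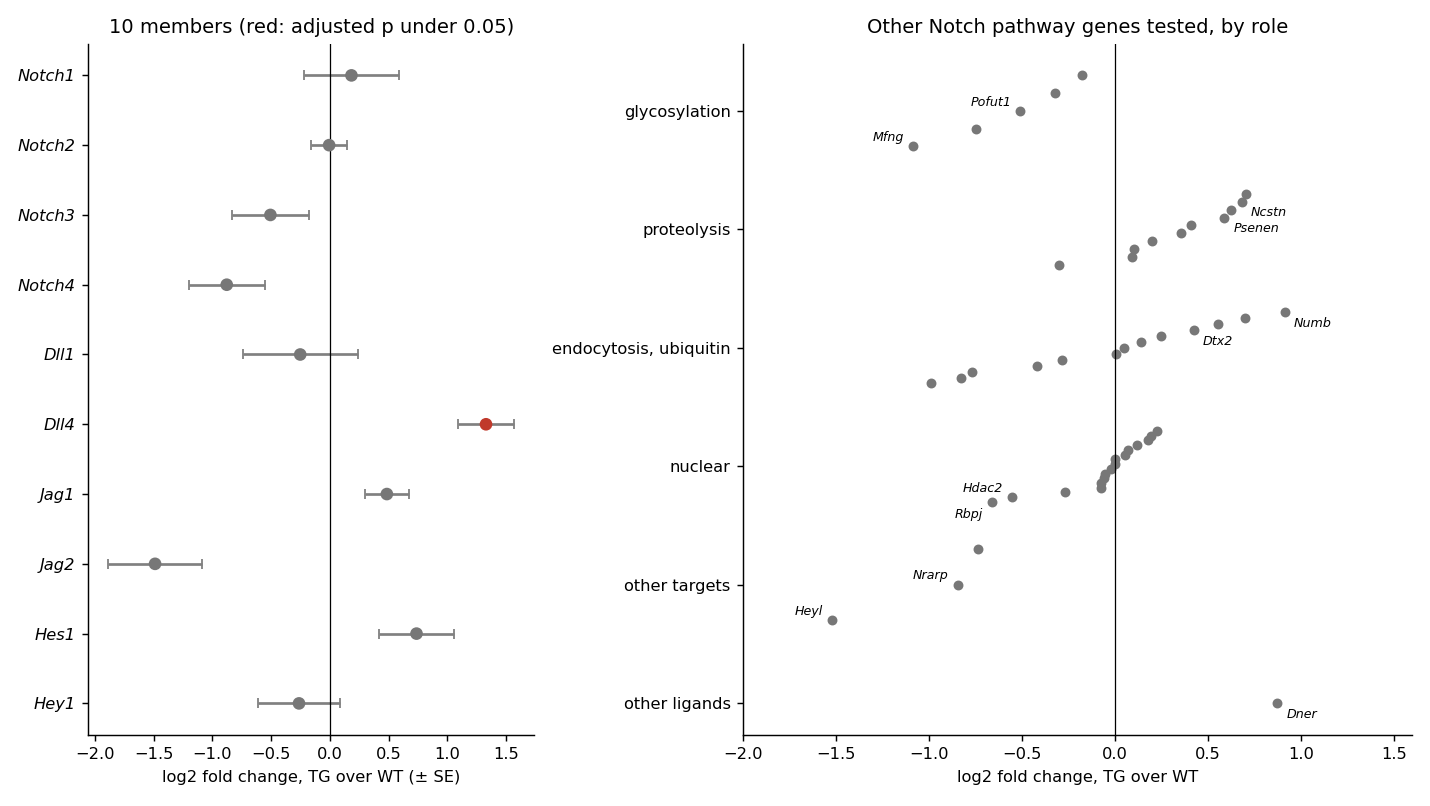
Log2 fold change of TG over WT (horizontal axes) for the 10 members with bars of ± 1 SE (left) and for the 48 other pathway genes tested, by role, with the 2 smallest p of each role named (right). *Dll4* (1.33) is the 1 gene with an adjusted p under 0.05 (red), and the glycosylation genes and other targets lie left of 0.

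TG1 and WT4 had the highest summed smooth muscle markers of their groups. A fit that left both out was chosen after the data were seen. For *Dll4*, *Jag2* and *Notch4* alike, TG1 was the TG mouse nearest to WT and WT4 the WT mouse nearest to TG, so leaving them out widens these 3 differences by construction. In it 3 members were called, *Dll4* (log2 fold change 1.52, edgeR adjusted p = 0.00473), *Jag2* (-1.84, edgeR adjusted p = 0.0112) and *Notch4* (-1.24, edgeR adjusted p = 0.0226). Over the whole table the same fit called 11.9% of genes, against 4.24% with all mice. It gave 15 other pathway genes an adjusted p under 0.05 (19.1% of all genes), among them *Heyl* at -2.06 and *Numb* at 1.14.

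In bulk tissue, fewer cells of a type and less RNA per cell cannot be told apart, so the levels of cell type markers are given beside the members. Vascular endothelial markers were lower in TG in 9 of 10 genes, with a summed level of 40.7 to 141 FPKM in TG and 74.1 to 171 in WT. Of the 2 most abundant, *Esam* (an endothelial adhesion molecule) had a log2 fold change of -1.22 and *Cldn5* (the claudin of endothelial junctions) one of 1.19, and 0 of the 10 had an adjusted p under 0.05 in edgeR, with 6 under 0.05 before adjustment. The mean log2 CPM of the list differed by -0.74 (TG minus WT), which did not pass the two-sided exact permutation test (p = 0.119). Arterial markers, which include the ephrin *Efnb2* (log2 fold change 0.72) and the transcription factor *Sox17* (-0.35), summed to 40.2 to 78.0 FPKM in TG and 38.0 to 82.2 in WT.

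Markers of the tissue layers differed more. The 9 epithelial markers were each higher in TG, with sums of 862 to 3638 FPKM against 413 to 1800, and the mean log2 CPM of the list was 1.48 higher (two-sided exact permutation test, p = 0.0238). The keratins *Krt19* and *Krt8*, the most abundant of that list in FPKM, had log2 fold changes of 1.45 and 1.24, and 0 of the 9 had an adjusted p under 0.05 in edgeR. Stromal markers were lower in 7 of 8 genes and called lower in 4, and their 2 most abundant genes were the collagens *Col1a1* (-1.18, edgeR adjusted p = 0.0671) and *Col3a1* (-1.46, edgeR adjusted p = 0.0445). Their mean log2 CPM was lower in each TG mouse than in any WT mouse.

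Smooth muscle markers were higher in 8 of 8 genes, with sums of 867 to 7350 FPKM in TG and 407 to 5776 in WT, and the actins *Acta2* and *Actg2* had log2 fold changes of 0.69 and 0.14 (edgeR adjusted p = 0.602 and 0.935). Mural markers summed to 45.4 to 187 FPKM in TG and 96.1 to 165 in WT, with the pericyte marker *Rgs5* at -1.45 (edgeR adjusted p = 0.0555) and *Mcam* at 0.44. Lymphatic markers were higher in 4 of 4 genes tested, with sums of 26.7 to 68.3 FPKM against 3.14 to 45.7. The most abundant were *Lyve1* at 1.27 and the chemokine *Ccl21a* at 1.06 (edgeR adjusted p = 0.239 and 0.445). *Prox1* and *Flt4* differed more, at 2.38 and 1.64 (edgeR adjusted p = 0.0581 and 0.0529). Leucocyte markers were higher in 3 and lower in 3 of 6 genes tested, and the pan-leucocyte marker *Ptprc* was at -1.08 (edgeR adjusted p = 0.0558). Of the 6, 2 were called higher, *Itgam* and *Cd68*. *Itgam* was at 30.7 FPKM in TG and 2.12 in WT, with a log2 fold change of 3.86 (edgeR adjusted p = 0.0279). *Cd68* (macrophages) had a log2 fold change of 1.58 (edgeR adjusted p = 0.0269), while *Lyz2* was at -0.41. No marker on these lists was at 0 in all 10 mice, and the part of these cell types in the differences of the members was not tested.

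**Figure D4:**
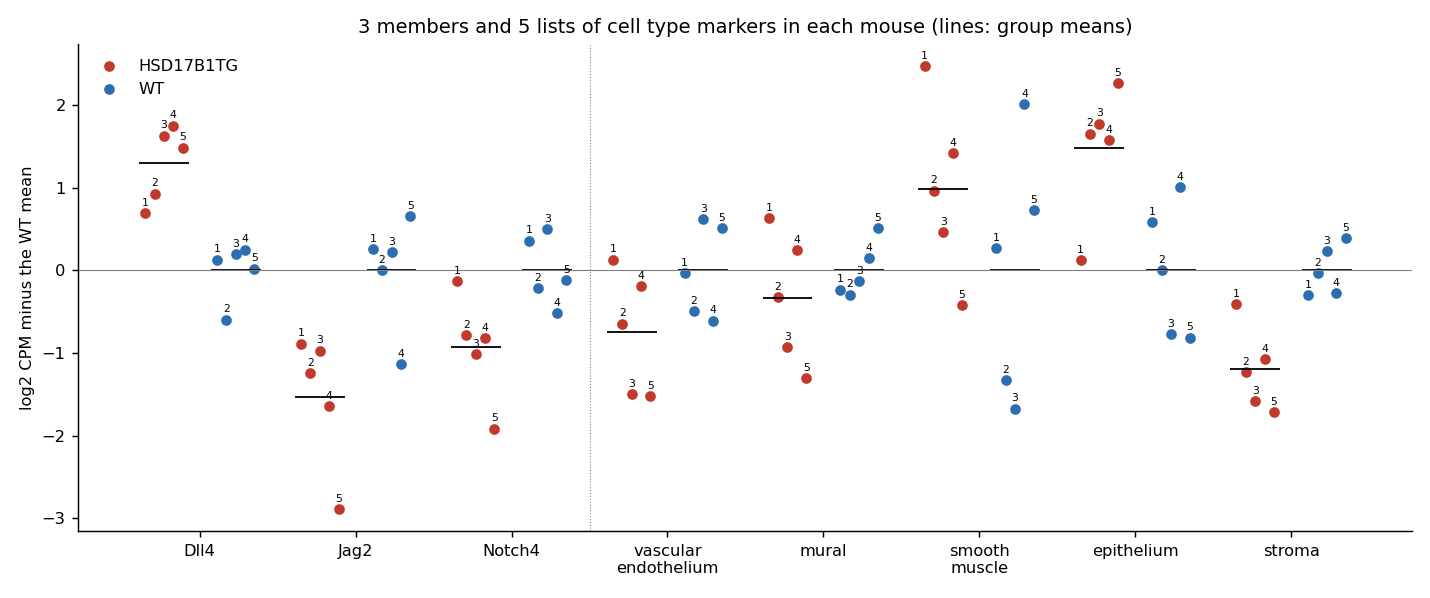
Log2 CPM minus the WT mean (vertical axis) of *Dll4*, *Jag2* and *Notch4* and the mean log2 CPM of 5 marker lists in each mouse, with TG in red, WT in blue and lines at the group means. *Dll4* lies higher in each TG mouse than in any WT mouse and the stromal list lower, the epithelial list is higher by 1.48 on average, and the endothelial list overlaps between the groups.

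Each member was also set against 5 of the marker lists, as its log2 CPM minus the mean log2 CPM of the list in the same mouse. Of the 50 two-sided exact permutation tests, 15 had a p under 0.05. The share of all genes tested with such a p depends on the list, at 20.5% for vascular endothelium, 12.7% for mural, 5.89% for smooth muscle, 60.2% for epithelial and 72.5% for stromal markers. Relative to vascular endothelium, *Dll4* differed by 2.04 (TG minus WT, p = 0.0159, two-sided exact permutation test, n = 5 each), and every TG mouse but TG1 was above every WT mouse. The p lay between 0.00794 and 0.0238 when each mouse was left out. *Jag1* differed by 1.26 on the same scale (exact permutation test, p = 0.0238), and *Notch4* by -0.19 (exact permutation test, p = 0.468). The *Notch4* value was -0.34 with the median of the list and -0.35 to -0.08 when each mouse was left out.

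*Dll4* differed by 1.63 relative to mural markers (exact permutation test, p = 0.0317) and by -0.18 relative to epithelial markers (exact permutation test, p = 0.706). *Jag2* differed by -0.33 relative to stromal markers (exact permutation test, p = 0.429) and by -3.00 relative to epithelial markers (exact permutation test, p = 0.0159). With the median of the stromal list in place of its mean, the *Jag2* value was -0.93 (exact permutation test, p = 0.0794). With the mean of the stromal list, it lay between -0.56 and -0.11 when each mouse was left out. Relative to mural markers *Jag2* differed by -1.19 (exact permutation test, p = 0.0397), and when each mouse was left out this p was under 0.05 only without TG3 (0.0238) or WT4 (0.0159). Relative to smooth muscle markers *Dll4* differed by 0.32 (exact permutation test, p = 0.706) and *Jag2* by -2.50 (exact permutation test, p = 0.0397). That p of *Jag2* was under 0.05 only without TG3 (0.0397) or WT4 (0.00794) when each mouse was left out. *Notch3* differed by -0.03 relative to mural markers (exact permutation test, p = 0.968). The smallest p, 0.00794, was found for *Dll4*, *Jag1* and *Notch2* relative to stroma, where 32.6% of all genes reached it with TG higher.

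Among 12668 protein-coding genes with a mean over 1 FPKM in either group, likeness over the 10 mice was measured as the root mean square difference of log2 CPM, each gene centred on its own mean. The genes most like *Dll4* were *Fes*, a tyrosine kinase (0.27), *Orai1*, the pore of the store-operated calcium channel (0.29), and *Trib2*, a pseudokinase (0.31). *Fes* lay at 15.1 ± 3.57 FPKM in TG and 6.25 ± 1.32 in WT. The genes most like *Jag2* were the transcriptional repressor *Hic1* (0.23), *Cdr2l* (0.26) and *Efs* (0.26), and *Hic1* lay at 8.58 ± 3.79 FPKM in TG and 25.6 ± 9.55 in WT. Those most like *Notch4* were *Tmem17* (0.17), the laminin chain *Lamc1* (0.20) and *Ggt7* (0.23). *Jag2* and *Notch4* differed from each other by 0.52 on this scale, and *Jag2* and *Dll4* by 1.65.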

How the data were processed

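Uterine mRNA was read from both ends (150 bp) on a NovaSeq, and the authors aligned the reads with HISAT2 (2.0.5 in the submitters' processing notes) to GRCm38 with Ensembl 94. The authors deposited raw counts per gene and mouse. The authors also deposited FPKM, in which each mouse's fragment number follows a size factor and not its own total. How reads were counted, and whether by strand, is not given in the sources used here. Columns and tables with the authors' own fold changes, p-values and enriched GO and KEGG terms were not used.

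Counts were filtered (filterByExpr), normalized (TMM) and tested by genotype with the quasi-likelihood test of edgeR 4.0.16 in R 4.3.3, with Benjamini-Hochberg adjustment over 16993 genes. Calls used the study's thresholds (adjusted p under 0.05, more than 2-fold, mean over 1 FPKM). Single values were tested by two-sided exact permutation. Log2 CPM used a prior count of 2. The fit was tested on simulated data.

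The genes named are the members, the 2 genes of each other role with the smallest p (or those with an adjusted p under 0.05), the 2 most abundant markers of each list, and the 3 genes most like the 3 members of smallest p. *Psen2*, *Ptprc*, *Itgam*, *Elf3*, *Prox1*, *Flt4*, *Dnah5*, *Foxj1* and *Gm14207* were named after their values were seen. The members and lists were chosen with earlier results of these data known. The p-values of the 50 tests against marker lists are unadjusted. Overlaps came from GENCODE M21 and promoters from RefSeq (GRCm38.p6). Alternatives were DESeq2 1.42.0, other normalizations and filters, limma 3.58.1 on voom weights or log2 FPKM, and each mouse left out. Some values relative to marker lists were also taken with the median of the list in place of its mean.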

Additional observations from a re-analysis of the deposited data

Results flagged for a closer look

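*Jag1* in WT5 stood apart from its group, at 9.73 FPKM beside 5.26 to 6.32 in the other 4 WT mice. Its gap to the next mouse was 0.761 of the range of the group, above Dixon's critical value for 5 values. Of 20 groups of 5 mice examined (10 members in 2 genotypes), this was the 1 past that value, and chance gives about 1 in 20.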

How the results depend on the processing

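*Dll4* kept its direction in all alternatives, with an adjusted p under 0.05 in each that kept all mice and in the fit without TG1 and WT4, and a log2 fold change of 1.18 to 1.46 when 1 mouse was left out, 5 of these 10 fits being over 0.05. *Jag2* kept its direction (-1.68 to -1.27 with 1 mouse left out) and passed 0.05 in DESeq2 (-1.48), with upper-quartile normalization (-1.57), with CPM over 1 in 5 mice (-1.51), in limma on log2(FPKM + 1) (-1.10) and without TG1 and WT4 (-1.84). The number of members called, and with an adjusted p under 0.05, was 1 as reported, 2 in the first 4 of these settings, 3 without TG1 and WT4 and 0 to 3 with 1 mouse left out. A fold change over 1.5 in place of 2 changed no member call. Other pathway genes called were 2 in DESeq2, 5 without TG1 and WT4 and 0 to 3 with 1 mouse left out. Those with an adjusted p under 0.05 were 7 in DESeq2, 1 each with upper-quartile normalization, CPM over 1 and limma on log2(FPKM + 1), 2 in limma on log2(FPKM + 0.1), 15 without TG1 and WT4 and 0 to 8 with 1 mouse left out. Genes called over the whole table were 721, 1572 in DESeq2, 2020 without TG1 and WT4 and 65 (without TG5) to 1554 (without WT4) with 1 mouse left out; the cause was not tested. With 1 mouse left out, uncalled differences turned sign for *Notch1* (-0.22 to 0.39), *Notch2* (-0.10 to 0.050), *Hey1* (-0.45 to 0.076), *Dll4* relative to epithelium (-0.37 to 0.061), *Dll4* relative to smooth muscle (-0.12 to 0.84) and *Notch3* relative to mural markers (-0.35 to 0.27). The 20 permutation tests of members with another pseudocount or on log2 CPM kept direction and side of 0.05. No paired analysis was possible because the labels pair no mice. Depth limits *Dll1* most, at 11 to 101 counts per mouse.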
